A study of Mus musculus with 8 samples.

Results

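Mouse embryonic stem cells in which the kinase MEK had been inhibited for 2 h were compared with cells not given the inhibitor. Both were taken 10 h after 4OHT was first added. The comparison used 4 of the 8 single-colour Agilent arrays of the series, chosen by their titles: 2 of cells given 250 nM 4OHT for 8 h and then 1 µM PD0325901 for 2 h, and 2 of cells given 250 nM 4OHT for 10 h. The other 4 arrays, 2 of untreated cells and 2 of cells given 4OHT for 8 h, served to place each gene before the inhibitor was added. All cells, controls included, were kept with the cytokine LIF, which holds embryonic stem cells undifferentiated, and with 250 nM PD173074, an inhibitor of FGF receptors. 4OHT (4-hydroxytamoxifen) is commonly used to activate a protein that has been fused to an altered hormone-binding domain of the oestrogen receptor. The labels name neither such a protein nor the cell line, and do not state whether 4OHT stayed in the medium while PD0325901 was present. If 4OHT was removed, its removal and MEK inhibition cannot be told apart. The series title refers to the kinase ERK, and MEK is the kinase upstream of ERK. The comparison asks which transcripts changed while MEK was inhibited during the last 2 h.

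RAS proteins activate RAF kinases, RAF activates MEK, and MEK activates ERK, which phosphorylates transcription factors such as ETS proteins and switches on immediate early genes within minutes. Among its targets are the phosphatases and Sprouty proteins that dampen the pathway again, so these transcripts are widely read as a measure of ERK activity. In mouse embryonic stem cells, ERK signalling driven by FGF4 favours exit from naive pluripotency, and inhibitors of MEK are used in culture to hold the naive state.

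Levels are log2 values of the signal relative to the 75th percentile of its array, so that 0 stands for that percentile. Differences are log2 values of PD0325901 for 2 h minus 4OHT for 10 h ± the standard error of the limma fit, with 2 arrays per group. A gene is said to have risen or fallen where its Benjamini-Hochberg adjusted p over all features tested was under 0.05 in limma's two-sided moderated test. With 2 arrays per group the number of arrays limits the precision, and a p-value here reflects only how far the samples of a group, called biological replicates in the design text, lay apart. In bulk RNA, fewer cells of a type and less RNA per cell cannot be told apart. Each group occupied its own column of the 1 slide, so column and group cannot be told apart.

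Between 30218 and 37789 of 59305 non-control spots were well above background on an array, at least 36889 on each array of replicate 1 and at most 31433 on each of replicate 2, and 0 spots were saturated. Across genes the 2 arrays of 4OHT 10 h correlated at r = 0.9927 and the 2 of PD0325901 at r = 0.9934. The defining stem cell factors were well above background on every array. Pou5f1, which encodes OCT4, lay at 6.82 and 6.82 in the 4OHT 10 h arrays and at 6.73 and 6.46 in the PD0325901 arrays, and Sox2 at 4.29 and 4.23 and 3.45 and 3.40. Of 18 fibroblast and feeder markers 7 were not well above background, and the summed linear level of the other 11, relative to the 75th percentile, was 43.8 and 22.1 in 4OHT 10 h and 27.8 and 16.3 after PD0325901, against 4.88 and 3.69 in untreated cells, most of it from Thy1 (5.35 and 4.23 and 4.64 and 3.74, adjusted p = 0.627). Of these 11, Twist1 fell (-1.19 ± 0.23) and Col1a1 rose (0.74 ± 0.11), and both calls were lost without each of the 4 arrays in turn, that of Twist1 also with normexp. The part of such markers in the results below was not tested.

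Between PD0325901 for 2 h and 4OHT for 10 h, 1388 of 22687 genes and unnamed features tested differed, or 6.12%. Of these 736 were higher (3.24% of those tested) and 652 were lower (2.87%), with median differences of 0.92 and -0.78 among them, against -0.04 over all features. At least 2-fold changes numbered 323 upward and 234 downward, together 2.46% of the features, and changes of at least 8-fold numbered 35 and 29. The split between directions depended on the centring: with each array centred on its median instead, 490 were higher and 683 lower, so that 41.8% of the calls were higher. With the replicate number as a block, 2820 were called (1512 higher and 1308 lower), including 1385 of the 1388. Without 1 array the count was 410 or 461 (PD0325901 replicate 1 or 2 left out) and 573 or 369 (4OHT 10 h replicate 1 or 2), and 265 of the 1388 kept their call in each of these 4 fits, 137 lower and 128 higher. A fit of the 4 arrays alone called 327, and 333 were called with no filter on dim probes. Counts for gene lists without 1 array are given below in that order, as the 4 left-out fits. Each count of list members that rose or fell stands against the 3.24% higher and 2.87% lower among all features. Each call named below as lost without each of the 4 arrays was also lost with no filter and, except for Egr2, Gsc and Cfc1, in the fit of the 4 arrays alone. All 1388 had arrays of the 2 groups that did not overlap, as did 52.2% of all features.

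**Figure D1:**
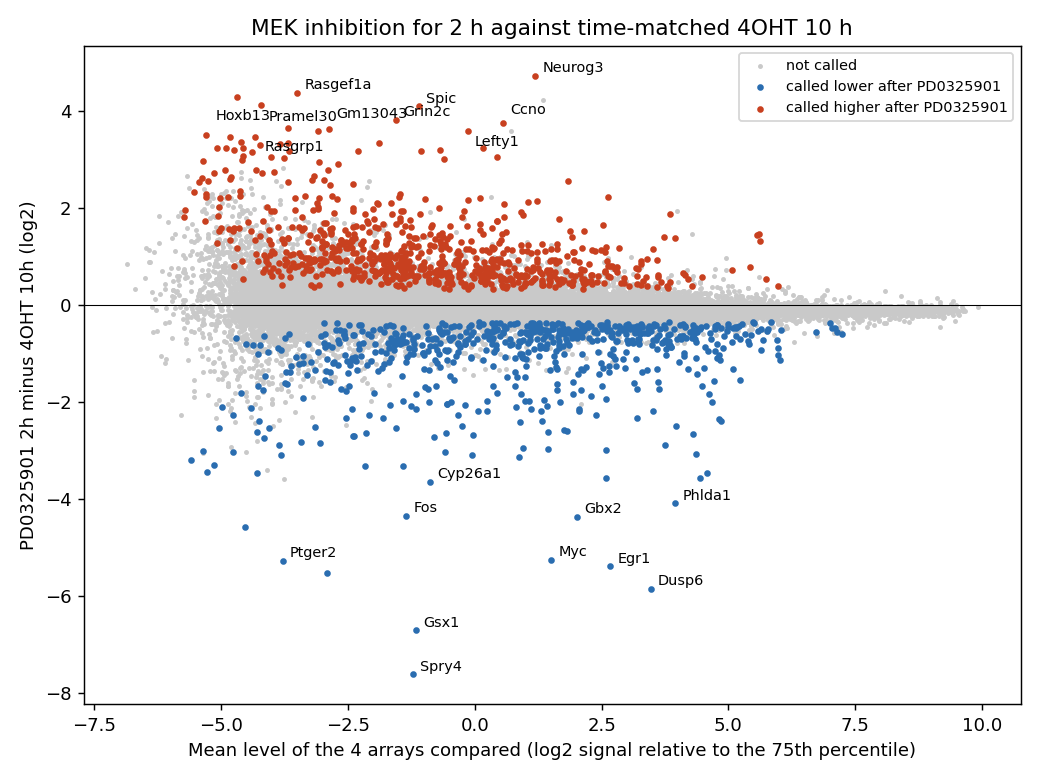
Difference between PD0325901 for 2 h and 4OHT for 10 h (log2, vertical axis) against the mean level of the 4 arrays (log2 relative to the 75th percentile, horizontal axis) for each of the 22687 features, with the 736 called higher in red, the 652 called lower in blue and the rest in grey. The genes named are the 10 largest falls and the 10 largest rises with a symbol, and the falls reach farther from 0 (Spry4, -7.62) than the rises (Neurog3, 4.73).

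The negative regulators of ERK signalling included the largest fitted fall. Spry4, a Sprouty protein that blocks signalling between receptor and RAF, lay at -0.72 and -0.82 in untreated cells, 2.37 and 2.10 after 8 h of 4OHT, 2.65 and 2.53 after 10 h and -4.85 and -5.22 after PD0325901, where 1 of the 2 arrays was well above background. Both inhibitor arrays were below both untreated arrays. The fall was -7.62 ± 0.16 (adjusted p = 0.000118). With the dim array set at the lowest signal well above background on it, Spry4 was at least 153-fold lower. Dusp6, the cytoplasmic phosphatase that removes the activating phosphates from ERK, lay at 3.43 and 3.46 in untreated cells, 6.32 and 6.26 at 8 h, 6.38 and 6.42 at 10 h and 0.43 and 0.65 after PD0325901. It fell 57.8-fold (-5.85 ± 0.09, adjusted p = 5.27e-05), again to below its untreated level. Spry2 fell from 2.41 and 2.44 to -0.58 and -0.45, a difference of -2.94 ± 0.10, also to below the untreated arrays at 0.59 and 0.55.

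Other members ended on either side of their untreated level. Dusp5, a nuclear ERK phosphatase, went from -4.59 and -4.78 in untreated cells to -0.46 and -0.13 at 10 h and -2.86 and -2.79 after the inhibitor (-2.53 ± 0.13, adjusted p = 0.0014), and so kept a level above both untreated arrays. Dusp4, another nuclear phosphatase, lay at 2.64 and 3.05 at 10 h and 0.80 and 1.22 after the inhibitor, with untreated arrays at -1.36 and -1.38. Its fall of 1.83 on the log2 scale lost its call in the fit of the 4 arrays alone, without PD0325901 replicate 1 and without 4OHT 10 h replicate 2. Dusp1, a phosphatase with wider substrates among MAP kinases, fell from 2.70 and 2.80 to 0.15 and 0.12 (-2.62 ± 0.10), against 0.53 and 0.79 in untreated cells. Spred1, a Sprouty relative that recruits neurofibromin, fell from 3.32 and 3.24 to 1.99 and 2.05 (-1.26 ± 0.07).

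Of 23 listed phosphatases and feedback inhibitors 22 were tested, and 12 fell while 1 rose. That is against 2.87% lower among all features, and their median difference was -0.86 against -0.04. The 1 that rose was Dusp16, a phosphatase of JNK and p38, by 0.41 ± 0.07, a call that was lost without each of the 4 arrays, with median centring and with the mean of its probes. With the replicate block 13 fell and 5 rose. In the 4 left-out fits 8, 9, 10 and 9 fell and 0 rose, in the fit of the 4 arrays alone 6 fell, and with no filter 9 fell.

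Immediate early transcription factors formed the group with the lowest median, -1.06. Of 31 listed, 29 were tested, 20 fell and 1 rose. Egr1, a zinc finger factor induced by growth signals through ERK, lay at 0.83 and 1.42 in untreated cells, 5.16 and 5.56 at 10 h and -0.29 and 0.23 after PD0325901. The fall was 42-fold (-5.39 ± 0.29, adjusted p = 0.0014). Myc, which drives growth and ribosome synthesis, lay at 1.70 and 1.67 in untreated cells, 4.0 and 4.28 at 10 h and -1.28 and -0.96 after the inhibitor, 38.4-fold lower (-5.26 ± 0.15, adjusted p = 0.00028) and below both untreated arrays. Fos, the founding member of the AP-1 family, fell from 0.41 and 1.23 to -3.60 and -3.46 (-4.35 ± 0.33).

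AP-1 partners moved less evenly. Fosl1 fell by 2.64 from 0.61 and 0.89 to -1.84 and -1.94, where it was still above its untreated arrays at -3.45 and -3.82. Jun fell by 2.10 and Junb by 2.01 on the log2 scale. The call of Jun was lost without either PD0325901 array, in the fit of the 4 arrays alone and with no filter, and that of Junb without either PD0325901 array and without 4OHT 10 h replicate 2. Maff, a small MAF protein, fell by 2.18, and Arc, an effector induced with these factors in neurons, by 2.0 from 5.60 and 5.76 to 3.73 and 3.62. The 1 member that rose was Atf3, a stress-induced repressor of the same family, at -2.78 and -3.20 in the 4OHT 10 h arrays and -0.76 and -1.01 after the inhibitor (2.11 ± 0.27, adjusted p = 0.0137). Its call was lost without either PD0325901 array, without 4OHT 10 h replicate 2 and with no filter. In the 4 left-out fits 11, 12, 17 and 12 of the list fell, while 13 fell with no filter on dim probes and 13 in the fit of the 4 arrays alone.

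The CArG box is the site bound by serum response factor (SRF) with ERK-dependent ETS partners, and Zfp36 and Egr2 are the 2 genes of the immediate early list with a match among the falls of at least 4-fold. The motif was searched as CC and GG around 6 bases that are each A or T, which reads the same on both strands, in RefSeq windows (build GRCm38.p6) from 250 bases before to 50 bases after the start. Of 64 genes with a symbol that fell at least 4-fold 45 had a window, and the others were not searched. Among genes with a window, 5 of 45 that fell at least 4-fold held it (11.1%), as did 0 of 53 that rose at least 4-fold and 195 of 11543 tested (1.69%). Of all 392 genes with a window that fell, 11 held it (2.81%), and of 474 that rose, 9 (1.9%). The 250 bases before the start of these 5 genes are shown with the box in capitals, 5′ to 3′ on the gene's strand, with those of Dusp6, which fell more deeply and has no match. They lie at chr19:53528895-53529144 (plus strand, Dusp5), chr7:28379229-28379478 (minus, Zfp36), chr10:67537316-67537565 (plus, Egr2, 4 of whose 5 windows hold a box), chr7:79793591-79793840 (minus, Mesp1), chr16:57548992-57549241 (plus, Filip1l, 1 of 2 windows) and chr10:99262981-99263230 (plus, Dusp6).
Dusp5: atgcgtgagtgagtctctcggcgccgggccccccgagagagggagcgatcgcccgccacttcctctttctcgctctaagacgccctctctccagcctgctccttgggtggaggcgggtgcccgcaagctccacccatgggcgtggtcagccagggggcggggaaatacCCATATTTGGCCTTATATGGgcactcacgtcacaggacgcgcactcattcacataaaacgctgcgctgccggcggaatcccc
Zfp36: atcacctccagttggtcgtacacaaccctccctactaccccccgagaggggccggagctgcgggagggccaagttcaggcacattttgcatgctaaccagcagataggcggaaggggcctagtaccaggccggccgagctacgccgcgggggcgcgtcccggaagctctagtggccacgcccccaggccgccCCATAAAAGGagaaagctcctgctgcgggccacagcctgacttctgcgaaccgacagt
Egr2: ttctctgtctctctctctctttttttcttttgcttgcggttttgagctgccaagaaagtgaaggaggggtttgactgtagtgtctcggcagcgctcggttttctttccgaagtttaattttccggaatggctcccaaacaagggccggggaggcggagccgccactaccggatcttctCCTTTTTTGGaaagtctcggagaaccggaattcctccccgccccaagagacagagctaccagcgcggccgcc
Mesp1: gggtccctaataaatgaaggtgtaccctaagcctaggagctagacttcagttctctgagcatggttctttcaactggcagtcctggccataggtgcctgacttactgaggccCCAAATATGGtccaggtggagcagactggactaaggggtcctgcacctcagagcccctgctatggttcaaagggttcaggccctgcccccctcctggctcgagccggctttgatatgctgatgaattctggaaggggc
Filip1l: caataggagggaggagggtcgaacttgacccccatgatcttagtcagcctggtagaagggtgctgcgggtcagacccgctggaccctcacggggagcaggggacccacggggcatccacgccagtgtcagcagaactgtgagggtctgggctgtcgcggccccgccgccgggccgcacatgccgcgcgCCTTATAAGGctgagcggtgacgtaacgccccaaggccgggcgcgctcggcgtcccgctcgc
Dusp6: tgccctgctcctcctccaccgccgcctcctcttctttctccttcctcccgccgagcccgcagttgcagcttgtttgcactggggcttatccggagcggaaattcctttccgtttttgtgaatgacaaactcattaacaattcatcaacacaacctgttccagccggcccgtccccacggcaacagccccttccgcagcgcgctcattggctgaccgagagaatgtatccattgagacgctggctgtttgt

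Dusp5 holds a pair of boxes, whose first bases lie 82 and 72 bases before the start. In Zfp36, Filip1l, Egr2 and Mesp1 the first base lies 58, 62, 72 and 138 bases before it. Egr2, a relative of Egr1, was at -2.56 and -2.0 in the 4OHT 10 h arrays and not well above background after PD0325901, at least 6.32-fold lower (adjusted p = 0.0433). Mesp1, a factor of early mesoderm, fell by 2.88, to a level that 1 of the 2 PD0325901 arrays had well above background, and Filip1l, a filamin-interacting protein, by 2.65. The calls of Egr2, Mesp1 and Filip1l were lost without each of the 4 arrays and with no filter, that of Egr2 also with normexp, and those of Mesp1 and Filip1l also in the fit of the 4 arrays alone. Those of Dusp5 and Zfp36 held in every setting tried.

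The other motifs were counted in the same windows, on both strands. The cyclic AMP response element TGACGTCA was held by 5 of the 45 genes (11.1%, Areg, Dusp1, Epha2, Foxd3 and Maff), by 3 of the 53 that rose at least 4-fold (5.66%), by 4.85% of all that fell and by 3.39% of those tested. The AP-1 site TGANTCA was held by 2 of the 45 (4.44%) and 4 of the 53 (7.55%), against 6.46% of those tested. The ETS core CCGGAA was held by 9 of the 45 (20.0%) and 6 of the 53 (11.3%), against 28.0%, and the EGR site GCGNGGGCG by 4 (8.89%) and 8 (15.1%), against 11.5%. The TATA motif TATAAA was held by 9 of the 45 (20.0%) and 9 of the 53 (17.0%), against 10.2%. A CArG box can hold TATAAA, no other motif searched can hold another, and a match describes only these letters.

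ERK also induces secreted ligands, and their transcripts fell in part. Hbegf, a membrane-bound ligand of the EGF receptor, lay at 4.48 and 4.24 at 10 h and 0.93 and 0.68 after PD0325901, 11.8-fold lower (-3.56 ± 0.15, adjusted p = 0.000757) and below its untreated arrays at 2.13 and 1.94. Areg, another EGF receptor ligand, was not well above background after the inhibitor and was at least 3.31-fold lower (adjusted p = 0.0427), a call lost without each of the 4 arrays and with normexp. Phlda1, a pleckstrin-domain protein that is a common reporter of ERK output, fell 17.1-fold from 5.74 and 6.25 to 1.67 and 2.15 and stayed above both untreated arrays at 1.23 and 1.28. Plaur, the urokinase receptor, fell less, from 5.95 and 6.04 to 4.39 and 4.50 (-1.55 ± 0.12), and kept most of its distance from the untreated 2.29 and 1.99. Ephrin A1 (Efna1) rose from -3.49 and -3.95, where 1 of the 2 arrays was well above background, to -1.78 and -1.87 (1.90 ± 0.17) while its receptor Epha2 fell from 5.64 and 5.63 to 2.88 and 3.05 (-2.67 ± 0.11). Plat, tissue plasminogen activator, rose by 1.47, a call lost in the fit of the 4 arrays alone.

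Of 29 listed ligands, proteases and their receptors 20 were tested, 5 fell and 3 rose, with a median of -0.80. With the replicate block 10 fell, among them Mmp9 (-1.14 ± 0.43, adjusted p = 0.209 without the block) and Ereg, which was not called without it (adjusted p = 0.22). In each of the 4 left-out fits 4 fell and 2 rose. Of 23 receptor tyrosine kinases and adaptors tested 1 fell and 1 rose, with a median of 0.12, near the 2.87% lower and 3.24% higher among all features, and Fgfr4 (-1.20 ± 0.22) and Fgfr1 (0.41 ± 0.07) lost these calls without each of the 4 arrays, Fgfr4 also with quantile normalization and Fgfr1 with median centring and with the mean of its probes. With the block 1 fell and 4 rose.

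Among the kinases and exchange factors of the cascade itself 2 of 23 rose and 0 fell, with a median of -0.10. Both were exchange factors that load RAS proteins with GTP. Rasgef1a was not well above background on either 4OHT 10 h array and lay at -1.07 and -1.54 after PD0325901, at least 11.3-fold higher (adjusted p = 0.00362), near the untreated -0.54 and -0.25. Rasgrp1 lay at -5.38 and -4.38 at 10 h, where 1 array was well above background, and at -1.33 and -1.25 after the inhibitor (3.59 ± 0.34, at least 11.6-fold higher with the dim array set at its lowest signal well above background), a call lost in the fit of the 4 arrays alone. With the replicate block 3 rose and 2 fell.

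Etv4 and Etv5, ETS factors that are common readouts of FGF and ERK activity in embryos, did not pass the test. Etv4 lay at 4.29 and 4.10 in untreated cells, 6.0 and 5.98 after 8 h of 4OHT, 6.12 and 6.09 after 10 h and 5.81 and 5.79 after PD0325901 (-0.31 ± 0.08, adjusted p = 0.107), and passed only with an intensity trend among the alternatives. Etv5 lay at 6.55 and 6.52 and 6.48 and 6.42 (-0.08 ± 0.08, adjusted p = 0.616). Over the ETS list 2 of 19 tested rose and 1 fell, with a median of -0.06. Spic, a member of the PU.1 branch, lay at 1.66 and 1.48 in untreated cells, -2.85 and -3.47 at 10 h and 1.17 and 0.71 after the inhibitor, 17.1-fold higher (4.10 ± 0.28). Elf3, an epithelial ETS factor, went from -2.35 and -2.23 to 1.03 and 0.78 (3.20 ± 0.16), against 0.74 and 0.31 in untreated cells. Erf, an ETS repressor that ERK exports from the nucleus, was the 1 that fell (-0.81 ± 0.14), a call lost without each of the 4 arrays and with quantile normalization. With the block 5 fell.

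Transcripts of proteins that shorten the life of AU-rich messages were among the falls. Zfp36, Zfp36l1 and Zfp36l2 encode the tristetraprolin family. Zfp36l2 went from 5.14 and 5.25 at 10 h to 2.22 and 2.38 after PD0325901 (-2.89 ± 0.09, adjusted p = 0.00028), Zfp36 from -0.92 and -1.14 to -3.60 and -3.89 (-2.71 ± 0.19), and Zfp36l1 from 4.74 and 4.48 to 2.57 and 2.28 (-2.19 ± 0.15). All 3 ended below their levels in untreated cells on the means of 2 arrays. Noct, which encodes nocturnin, of the deadenylase family, fell 11.1-fold from 6.37 and 6.26 to 2.93 and 2.76. Of 23 listed and tested, 6 fell and 1 rose (Tob1, 1.07 ± 0.20, lost without each of the 4 arrays and with median centring), with a median of -0.11. In each of the 4 left-out fits 5 fell and 0 rose.

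**Figure D2:**
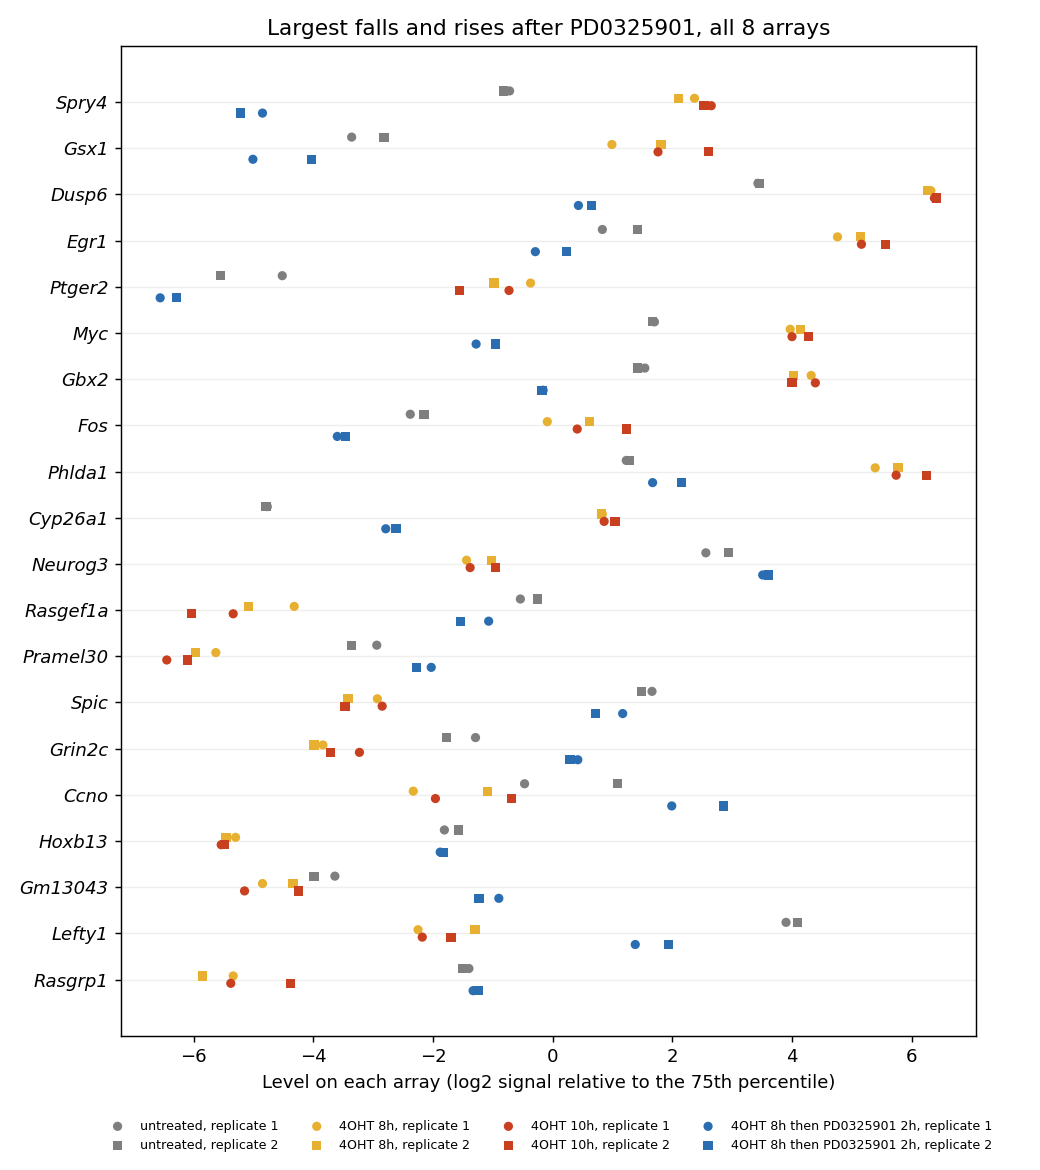
Level on each of the 8 arrays (log2 relative to the 75th percentile, horizontal axis) of the 10 genes with the largest falls and the 10 with the largest rises, with 1 point per array, circles for replicate 1 and squares for replicate 2. In all 20 the blue PD0325901 points lie apart from the red 4OHT 10 h points. Spry4, Gsx1, Dusp6, Egr1, Myc and Gbx2 are among those that lie below their grey untreated points after the inhibitor.

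Naive pluripotency genes moved both ways. Of 24 tested 5 rose and 5 fell, with a median of 0.08. Nanog, a core factor of the naive state, lay at 4.78 and 4.83 in untreated cells, 1.93 and 1.48 at 10 h and 3.54 and 3.19 after PD0325901, a rise of 1.66 (adjusted p = 0.00997) that left it below both untreated arrays. Its call was lost without PD0325901 replicate 1 and in the fit of the 4 arrays alone. Fgf4, the ligand that these cells secrete to activate their own ERK, rose from 4.99 and 4.95 to 6.32 and 6.26 (1.32 ± 0.10), close to the untreated 6.40 and 6.67. Prdm14, a repressor of FGF signalling, rose by 2.13, Klf2 by 1.45 and Tbx3 by 1.39 on the log2 scale.

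These 3 calls were lost without either PD0325901 array, without 4OHT 10 h replicate 2, with no filter and in the fit of the 4 arrays alone, and that of Tbx3 also without 4OHT 10 h replicate 1 and with median centring. Klf4 lay at 3.93 and 3.16 and 5.28 and 4.75 and did not pass (1.47 ± 0.32, adjusted p = 0.0614), but did with the replicate block (adjusted p = 0.00966), with normexp, with an intensity trend and over probes bright on all arrays. Esrrb, at 6.48 and 5.87 and 6.54 and 6.22, did not pass in any setting (0.21 ± 0.23, adjusted p = 0.657). Gbx2, listed here because it sustains self-renewal downstream of LIF, fell 20.6-fold from 4.39 and 4.0 to -0.16 and -0.18 (-4.37 ± 0.16), and Bmp4 11.8-fold from 6.43 and 5.99 to 2.53 and 2.78. The other 3 falls, Klf5 (-0.89 ± 0.14), Dppa2 (-0.59 ± 0.11) and Manba (-0.57 ± 0.09), lost their calls without each of the 4 arrays, Dppa2 also with quantile normalization and with the mean of its probes. With the block 7 rose and 7 fell, and in the 4 left-out fits 1, 2, 4 and 2 rose and 2 fell each time.

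No member of the general pluripotency list rose. Of 20 tested 8 fell, with a median of -0.34. Otx2 fell from 4.23 and 4.51 to 1.90 and 2.15 (-2.34 ± 0.18) and Foxd3 from 2.82 and 2.56 to 0.71 and 0.65 (-2.01 ± 0.11), both to below their untreated arrays. Otx2 and Foxd3 are transcription factors of the pluripotent epiblast. Sox2, the partner of OCT4, fell by 0.83 (adjusted p = 0.00699), a call lost in the fit of the 4 arrays alone, and Pou5f1 did not pass (-0.22 ± 0.10, adjusted p = 0.286). In the 4 left-out fits 4, 4, 5 and 4 of the list fell.

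Formative and primed epiblast genes gave 6 falls and 1 rise among 22 tested, with a median of -0.31. Dusp6, Otx2, Foxd3 and Sox4 (-1.59 ± 0.14) held their calls in every setting. Pou3f1 (OCT6), a marker of the primed epiblast, fell from 3.91 and 4.21 to 2.19 and 2.48 (-1.73 ± 0.19), a call lost in the fit of the 4 arrays alone, without PD0325901 replicate 1 and without 4OHT 10 h replicate 2, and stayed above the untreated 0.46 and 0.78. Fgf5, the textbook marker of that state, lay at -3.99 and -3.41 at 10 h and -4.10 and -3.25 after the inhibitor, groups that overlapped (0.02 ± 0.49, adjusted p = 0.989). The 1 rise was Nodal. With the block 9 fell, and in the 4 left-out fits 4, 5, 6 and 4.

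**Figure D3:**
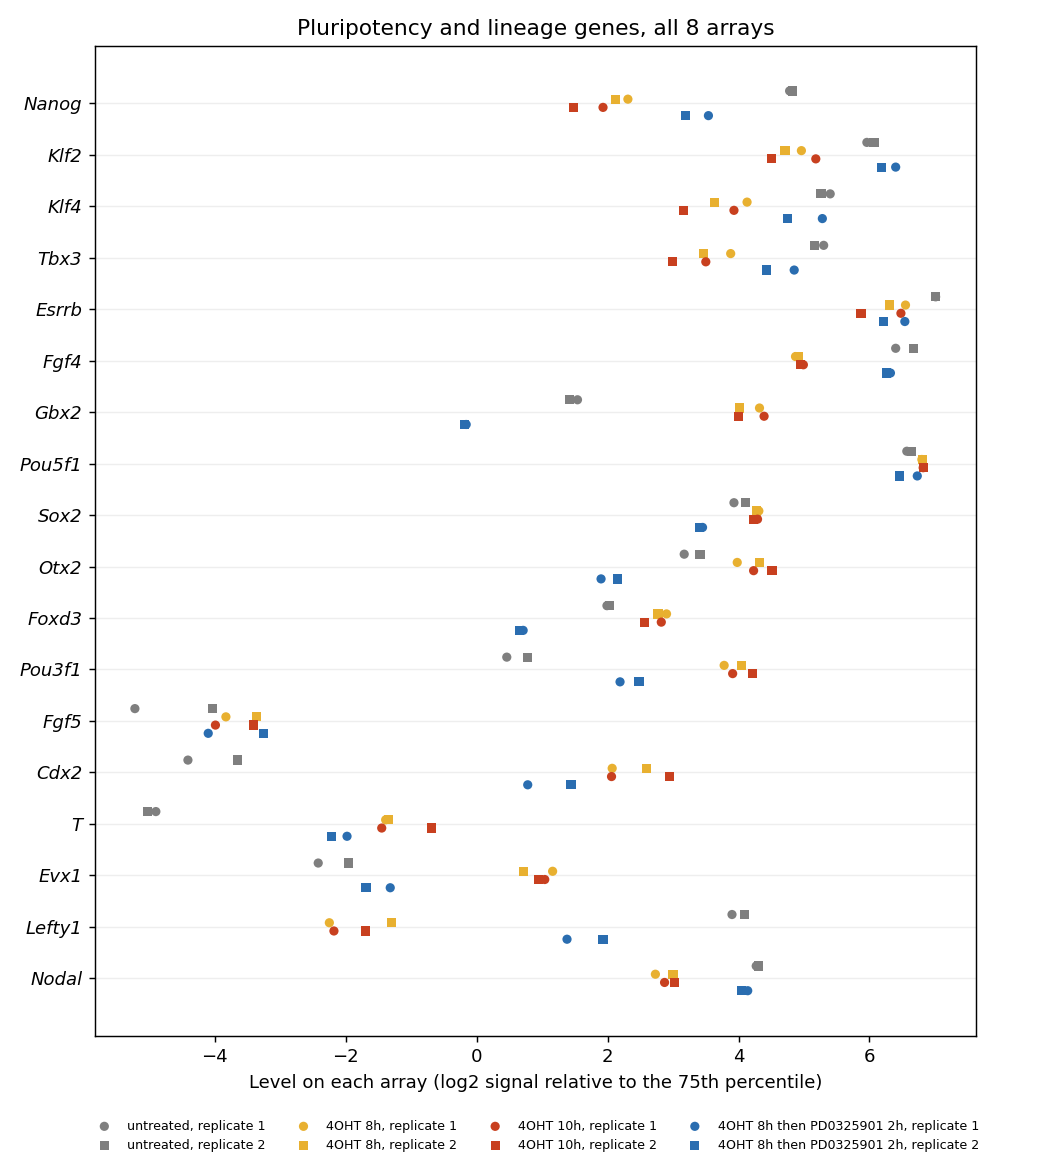
Level on each of the 8 arrays (log2 relative to the 75th percentile, horizontal axis) of 18 pluripotency and lineage genes, with colours and shapes by group and replicate. Nanog, Fgf4, Lefty1 and Nodal lie higher after PD0325901 (blue) than at 4OHT 10 h (red), Gbx2, Otx2 and Foxd3 lie below their untreated points, and Cdx2 and T stay far to the right of theirs.

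Nodal signals through SMAD2 and SMAD3 and induces its own antagonists of the Lefty family. Lefty1 had lain at 3.90 and 4.09 in untreated cells and at -2.18 and -1.70 after 10 h of 4OHT, and was at 1.38 and 1.93 after PD0325901, 12.1-fold higher (3.59 ± 0.36, adjusted p = 0.00685) yet below both untreated arrays. Nodal rose from 2.87 and 3.02 to 4.14 and 4.04 (1.15 ± 0.12), a call lost without PD0325901 replicate 1. Its coreceptor Cfc1 was not well above background at 10 h and at least 5.15-fold higher after the inhibitor, and Gsc, a target in the organizer, at least 1.95-fold higher, both calls lost without each of the 4 arrays and that of Gsc also with quantile normalization and normexp. Smad7, an inhibitor of the receptors, fell from 2.51 and 2.27 to 0.32 and 0.08 (-2.19 ± 0.15), although it had not changed at 8 h of 4OHT (0.31, adjusted p = 0.215). Lefty2 (-0.23, adjusted p = 0.278) and Tdgf1 (-0.45, adjusted p = 0.065), of the same list, did not pass. Of 20 tested 4 rose and 2 fell, with a median of 0.03, and in the 4 left-out fits 1, 2, 2 and 2 rose and 1 fell each time. With the block 5 rose and 5 fell.

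In the BMP group 5 of 20 tested fell and 2 rose, with a median of -0.04. Id1 fell from 6.11 and 5.88 to 3.48 and 3.79 (-2.36 ± 0.17) and Id3 from 1.28 and 1.33 to -1.40 and -1.37 (-2.69 ± 0.13, adjusted p = 0.00127). The ID proteins are targets of BMP signalling that block differentiation factors. Id3 had not changed after 8 h of 4OHT (-0.20, adjusted p = 0.334), with 1.29 and 1.59 in untreated cells, so after the inhibitor it was below all 6 other arrays. Id2 went the other way, from 1.13 and 1.90 to 3.79 and 3.68 (2.22 ± 0.33), a call lost without either PD0325901 array, without 4OHT 10 h replicate 1, with no filter and in the fit of the 4 arrays alone. Msx1 fell by 2.27, lost without 4OHT 10 h replicate 2 and in the fit of the 4 arrays alone. With the block 4 rose, and in the 4 left-out fits 0, 0, 0 and 1 rose and 5, 5, 5 and 4 fell.

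WNT genes gave 3 rises and 3 falls among 22 tested, with a median of -0.07. Fzd7, a WNT receptor of stem cells, fell from 1.98 and 1.97 to -0.05 and 0.07 (-1.97 ± 0.07, adjusted p = 0.000543), and Sp5, a direct target of the pathway, from 2.39 and 2.50 to 0.90 and 0.73 (-1.63 ± 0.10), still above the untreated -1.44 and -1.65. Axin2, the most used readout of WNT signalling, fell by 1.22, a call lost without each of the 4 arrays and under quantile normalization and normexp. Rnf43, a ligase that removes WNT receptors, was at least 2.83-fold higher (adjusted p = 0.0397), lost without each of the 4 arrays and with quantile normalization. With the block 6 fell and 4 rose, and in the 4 left-out fits 0, 1, 0 and 0 rose and 2 fell each time.

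Retinoic acid genes included a pair that moved in opposite directions. Cyp26a1, the enzyme that degrades retinoic acid, lay at -4.77 and -4.79 in untreated cells, 0.86 and 1.04 at 10 h and -2.79 and -2.62 after PD0325901, 12.6-fold lower (-3.65 ± 0.10, adjusted p = 0.00028). Dhrs3, which returns retinal to retinol, rose from -1.19 and -1.25 to 1.02 and 0.88 (2.17 ± 0.12), against 2.12 and 2.09 in untreated cells. The receptor Rarg fell by 1.03 from 6.47 and 6.52 to 5.40 and 5.53, while Rarb, which 1 array at 10 h had well above background, rose by 1.35, a call lost without either PD0325901 array, with normexp, with an intensity trend, with no filter and in the fit of the 4 arrays alone. Of 19 tested 3 rose and 2 fell, with a median of 0.05, and in the 4 left-out fits 1, 1, 2 and 2 rose.

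LIF targets fell in 5 and rose in 3 of 20 tested, with a median of -0.05. Pim1, a survival kinase, fell from 2.07 and 2.29 to 0.03 and 0.04 (-2.15 ± 0.10), and Socs2, a cytokine-induced inhibitor, by 1.30, repeated by both of its other probes. Socs3, the classical feedback inhibitor of LIF signalling, rose from 4.82 and 4.60 to 5.47 and 5.41 (0.73 ± 0.10, adjusted p = 0.0178), a call lost without either PD0325901 array, without 4OHT 10 h replicate 2, with median centring, with no filter and in the fit of the 4 arrays alone. With median centring 1 of the list rose, with the block 6 rose and 6 fell, and in the 4 left-out fits 0, 0, 1 and 0 rose and 3, 3, 4 and 3 fell.

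In the primitive streak list 14 of 20 were tested, 5 fell and 1 rose, against 2.87% lower and 3.24% higher among all features, with a median of -0.70. Evx1, a factor of the posterior streak, fell from 1.04 and 0.95 to -1.32 and -1.69 (-2.50 ± 0.23, adjusted p = 0.00502). T (brachyury), the defining gene of the streak, lay at -4.90 and -5.03 in untreated cells, -1.45 and -0.69 at 10 h and -1.98 and -2.22 after PD0325901 and did not pass (-1.03 ± 0.25, adjusted p = 0.0795), except with median centring, with an intensity trend and without 4OHT 10 h replicate 1. With the block 7 fell and 2 rose, and in the 4 left-out fits 2, 2, 3 and 2 fell. The summed level of 18 trophoblast markers was 81.8 and 91.2 at 10 h and 74.0 and 71.1 after the inhibitor, against 26.8 and 29.0 in untreated cells.

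Cdx2, the trophoblast and posterior factor, lay at -4.41 and -3.65 in untreated cells, 2.06 and 2.95 at 10 h and 0.78 and 1.44 after PD0325901 (-1.39 ± 0.43, adjusted p = 0.145, or 0.00436 with the replicate block), and so remained far above both untreated arrays. In the trophoblast list 3 fell and 2 rose among 18 tested, with a median of 0.01. Hopx (-1.12 ± 0.19), Eomes (-0.96 ± 0.12) and Hand1 (-0.95 ± 0.16) lost their calls without each of the 4 arrays, Eomes also with the mean of its probes. Ascl2, which sustains spongiotrophoblast, rose from 0.38 and 0.76 to 2.86 and 3.38 (2.55 ± 0.29), above both untreated arrays at 1.55 and 1.99, a call lost without PD0325901 replicate 2 and without 4OHT 10 h replicate 1. Tfap2c rose by 1.52, lost without either 4OHT 10 h array, with no filter and in the fit of the 4 arrays alone. With the block 5 fell and 4 rose, and in the 4 left-out fits 0 fell.

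Of 22 primitive endoderm genes tested 0 rose and 0 fell by limma, with a median of -0.03. The regulator Gata6 lay at 0.36 and -1.55 at 10 h and -0.69 and -2.58 after the inhibitor, so that the replicates of a group lay farther apart than the groups (-1.04 ± 1.15, adjusted p = 0.663). In each replicate the PD0325901 array lay below its 4OHT 10 h array, and Gata6 passed with the replicate block (adjusted p = 0.00303), with which 2 of the list rose and 1 fell. The neural and Notch list had the highest median, 0.32, with 1 rise and 1 fall among 20 tested. Hes5, a Notch target that 1 of the 2 arrays had well above background at 10 h, rose by 1.35, lost without either PD0325901 array, without 4OHT 10 h replicate 2 and in 5 other settings. Zic1 fell by 1.14, lost without PD0325901 replicate 1, without either 4OHT 10 h array, with no filter, with the mean of its probes and in the fit of the 4 arrays alone. With the block 5 rose, among them Dll1, at -3.85 and -2.84 and -1.40 and -0.43 (2.44 ± 0.59, adjusted p = 0.0807, or 0.00364 with the block).

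The growth and housekeeping lists gave counts of falls near the share among all features (2.87% lower, with 3.24% higher), so their counts do not set them apart. Of 28 genes of ribosome biogenesis and MYC targets 1 fell and 0 rose (median -0.16). Of 28 sterol genes 1 fell (median -0.15), of 24 genes of G1 and S phase 1 (median -0.10), of 22 of G2 and M phase 0 (median -0.07), of 25 of glycolysis and hypoxia 1 (median -0.17) and of 19 housekeeping genes 1 (median -0.14), with 0 rises in each. Each of these medians lay below the -0.04 of all features. Differences were negative in 25 of 28 ribosome and MYC genes, 19 of 28 sterol genes and 17 of 24 of G1 and S phase. They were negative in 16 of 22 of G2 and M phase, 20 of 25 of glycolysis and 16 of 19 housekeeping genes. Over all features 57.1% were negative, and the difference was not tested. With the replicate block the glycolysis list gave 6 falls and 3 rises, the G1 and S list 3 falls and 4 rises, the sterol list 3 falls and the housekeeping list 2. Ccnd1, the cyclin that links ERK to the cell cycle in many cells, lay at 3.30 and 3.64 and 3.73 and 3.89, groups that did not overlap, and did not pass (0.33 ± 0.19, adjusted p = 0.39). E2f2, the 1 call of the G1 list, fell by 1.93, lost without each of the 4 arrays.

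Regulators of survival changed in single genes. Bmf, a BH3-only protein that promotes apoptosis and is restrained by ERK in many cells, rose from 0.06 and -0.0 to 1.85 and 1.91 (1.85 ± 0.10, adjusted p = 0.00145), above both untreated arrays at 1.41 and 1.53. Pmaip1, another BH3-only protein known as NOXA, fell 8.73-fold from 2.60 and 2.27 to -0.41 and -0.97 (-3.13 ± 0.24). Of 23 p53 targets and apoptosis regulators 1 rose and 2 fell, with a median of -0.04, against 3.24% higher and 2.87% lower among all features. These counts are small and do not set the list apart. With the block 4 rose and 5 fell. Among growth arrest genes controlled by FOXO factors, Gadd45b rose from 0.07 and 0.26 to 2.44 and 2.17 (2.14 ± 0.14) and its relative Gadd45a fell by 1.05, a call lost without each of the 4 arrays. That list had 3 rises and 4 falls among 22 tested, with a median of -0.02. With the block 6 rose, and in the 4 left-out fits 2 rose each time and 0, 0, 3 and 1 fell.

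Stress and cytoskeletal lists gave 0 rises and 3 falls among 23 genes of the integrated stress and unfolded protein response (median -0.15), and 1 rise and 3 falls among 22 targets of SRF and YAP (median -0.03). Xbp1, a transcription factor of the unfolded protein response, fell from 5.21 and 5.14 to 3.91 and 3.84 (-1.30 ± 0.08), and Atf4 by 0.60, lost without either PD0325901 array, without 4OHT 10 h replicate 1 and in 4 other settings. Amotl2, a YAP target, rose by 0.89, lost in the fit of the 4 arrays alone, and Ccn1 (CYR61), another, fell by 0.83, lost without either PD0325901 array, without 4OHT 10 h replicate 2, with no filter and in the fit of the 4 arrays alone. In the 4 left-out fits 1, 1, 2 and 3 of the stress genes and 0, 0, 2 and 0 of the SRF and YAP targets fell, and with the block 3 of the latter rose. Of 7 genes of the 2-cell-like state tested 0 passed by limma.

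The remaining large changes fell outside the signalling lists. Gsx1, a homeobox gene of the nervous system, lay at -3.36 and -2.82 in untreated cells, 1.76 and 2.61 at 10 h and -5.01 and -4.03 after PD0325901, 104-fold lower (-6.71 ± 0.49, adjusted p = 0.00265). Ptger2, a receptor of prostaglandin E2, was not well above background after the inhibitor and at least 14.2-fold lower. Neurog3, a proneural factor best known from the endocrine pancreas, lay at 2.56 and 2.94 in untreated cells, -1.38 and -0.96 at 10 h and 3.51 and 3.61 after the inhibitor, 26.5-fold higher (4.73 ± 0.22, adjusted p = 0.00118) and above both untreated arrays.

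Other rises started from low levels. Hoxb13, a posterior homeobox gene, was not well above background at 8 or 10 h of 4OHT and at least 8.33-fold higher after the inhibitor, at -1.88 and -1.82 against -1.81 and -1.57 in untreated cells. Grin2c, a subunit of NMDA receptors, rose from -3.23 and -3.71 to 0.42 and 0.29 (3.82 ± 0.22), above the untreated -1.29 and -1.77. Ccno, of the cyclin family and known for multiciliated cells, rose from -1.96 and -0.69 to 1.99 and 2.86 (3.75 ± 0.75, adjusted p = 0.0471), a call lost without each of the 4 arrays and with quantile normalization. In all, 48 of the 736 higher features were not well above background on both 4OHT 10 h arrays and 16 of the 652 lower ones on both PD0325901 arrays, so their folds are bounds.

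The differences after the inhibitor ran largely against the earlier response to 4OHT. That response was read from 4OHT for 8 h against untreated cells, a comparison that shares no array with the inhibitor comparison. It called 4931 features (21.7%), 2329 higher (10.3%) and 2602 lower (11.5%), and without 1 array 2268 to 2852, the lowest without 4OHT 8 h replicate 2. Of the 2329 that 4OHT had raised, 532 (22.8%) fell after PD0325901 and 16 (0.687%) rose, with a median of -0.31. Of the 2602 that it had lowered, 537 (20.6%) rose and 5 (0.192%) fell, with a median of 0.28. Of the 17756 not called at 8 h, 183 (1.03%) rose and 115 (0.648%) fell, with a median of -0.04. Both comparisons took each gene's variance from the 1 fit of all 8 arrays. Their calls are therefore not independent, and the part of this in the shared counts was not tested.

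Seen from the inhibitor, 532 of the 652 features that fell (81.6%) had been raised at 8 h and 537 of the 736 that rose (73.0%) had been lowered. Across 22686 features the 2 differences correlated at Pearson's r = -0.56 and Spearman's rho = -0.53, a description over features of shared libraries and not of independent replicates. Among features raised at least 2-fold at 8 h 270 of 849 fell (31.8%), with a median of -0.56, and among those lowered at least 2-fold 309 of 835 rose (37.0%), with a median of 0.76. Without 1 array of the inhibitor comparison the 532 became 170 or 180 (PD0325901 replicate 1 or 2 left out) and 206 or 159 (4OHT 10 h replicate 1 or 2), and the 537 became 144 or 188 and 202 or 142. With the replicate block they were 1018 and 1118. With median centring the 532 became 588 and the 537 became 338.

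**Figure D4:**
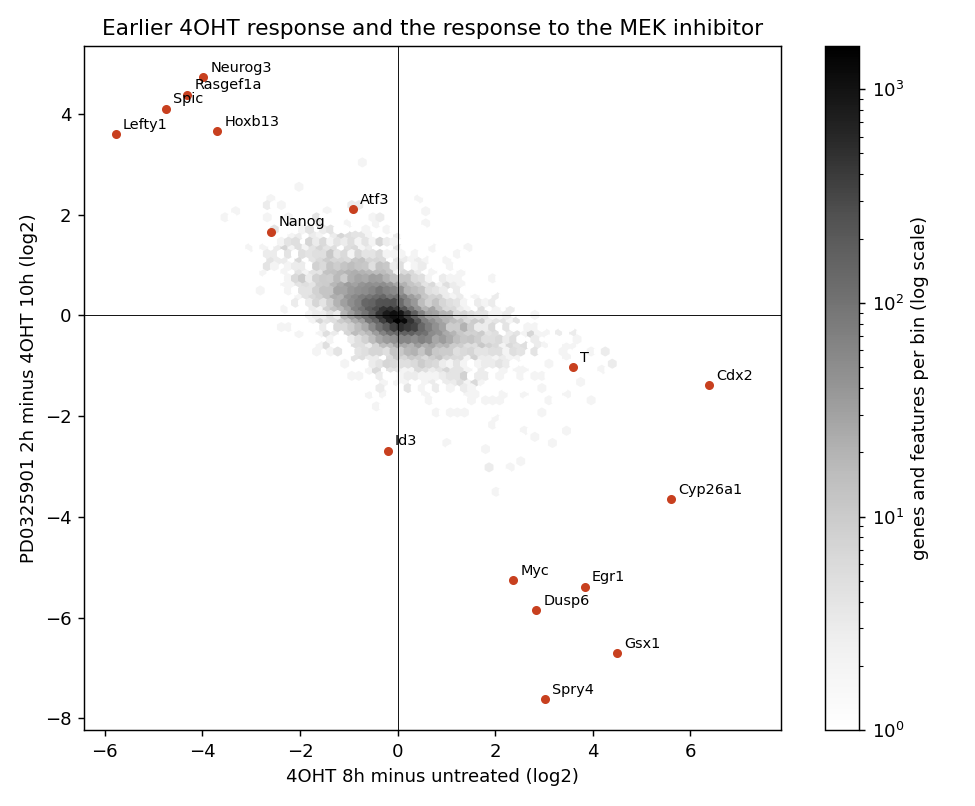
Difference between 4OHT for 8 h and untreated cells (log2, horizontal axis) against that between PD0325901 for 2 h and 4OHT for 10 h (log2, vertical axis) for 22686 features, in bins shaded by the number of features on a log scale, with named genes as red points. The differences on the 2 axes correlated negatively over all features (r = -0.56). Id3 lies low near 0 on the horizontal axis, and Cdx2 and T lie far to the right with negative differences that did not pass.

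The extent of the return differed between genes. Spry4, Gsx1, Dusp6, Egr1, Myc, Gbx2, Hbegf, Spry2, Dusp1, Otx2 and Foxd3 were among those that lay below both untreated arrays after PD0325901. Cyp26a1, Dusp5, Fosl1, Arc, Plaur and Sp5 stayed above both untreated arrays. Among the genes that rose, Nanog and Lefty1 remained below both untreated arrays, Neurog3, Bmf and Ascl2 were above both.

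Calls were also found among features without a symbol. Of 8194 unnamed features 134 rose and 140 fell (3.34%), against 585 and 496 of 14046 protein-coding genes (7.7%), and of 333 long noncoding RNA genes 16 rose and 15 fell (9.31%). The difference in share was not tested. Of the 1388 features called, 308 had another probe that was kept. That probe was called the same way for 127 of them and the opposite way for 1, an unnamed region, and all other probes had the same sign for 287.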

How the data were processed

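The 8 single-colour Agilent arrays, 2 per group, shared 1 slide. The deposited scanner files hold the processed signal, an intensity after background subtraction and spatial detrending with no scaling between arrays, made with Agilent Feature Extraction 11.0.1.1 per the file headers. The deposited value table holds the same intensity, unlogged and uncentred, within 0.5% (array medians, in the order untreated, 4OHT 8 h, 4OHT 10 h and PD0325901, were 29.9, 23.5, 21.6 and 22.4 in replicate 1 and 27.9, 26.5, 23.7 and 23.9 in replicate 2). Log2 of this signal minus the 75th percentile of non-control spots was computed for each array. Spots marked as outliers were left out on their array (169 to 249), and spots of a probe were averaged. The 30329 probes kept were those that 1 group or more had well above background on both its arrays. Where several stood for a gene, the one with the highest mean was used.

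Symbols came from matching RefSeq accessions to a table of assembly GRCm38.p6. Of 55681 probes 27656 (49.7%) had 1 symbol and 0 had several, and the 28025 others go by the name in the file. Group means were fitted to all 8 arrays in R 4.3.3 with limma 3.58.1 (residual degrees of freedom 4, prior 1.71), after reading with Python 3.11.15, with two-sided moderated tests and Benjamini-Hochberg adjustment over all features at 0.05. The script was tested on simulated data. A bound ("at least") divides the mean of the bright group by that of the dim one, in which each array counts at its own signal or at the lowest signal well above background, whichever is higher.

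The replicate numbers of the labels coincide with the rows of the slide. Deviations from the group means correlated at 0.29 to 0.36 between same-numbered arrays in all 6 pairs of groups. The numbers were therefore taken to pair the samples, but the main fit has no block. Values with the replicate as a block are given for genes named by rule whose call they change, and for some lists. With the block 21 of the immediate early list, 9 of general pluripotency and 3 of retinoic acid fell. Of the stress list 4 fell and 1 rose, and 4 SRF and YAP targets and 2 feeder markers fell. Alternatives were quantile normalization, median centring, normexp (offset 50, on the median signal), the deposited table, no filter, probes bright on all arrays compared, only the 4 arrays compared, an intensity trend with a robust prior, the mean of a gene's probes, and leaving out each array. Named genes were the 10 largest falls and rises with a symbol, with both arrays of the higher group bright and no overlap between groups, up to 4 called members of each list by adjusted p, and a fixed set of ERK, pluripotency and lineage genes. The comparison, the members and the lists were chosen with earlier results of these data known. Some further named members outside this rule (Twist1, Thy1, Dusp16, Areg, Ereg, Mmp9, Egr2, Mesp1, Filip1l, and single examples in other lists) were chosen after their values were seen. Values of a few listed genes are not reported here.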

Additional observations from a re-analysis of the deposited data

How the results depend on the processing

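Among 94 named genes that were called, 57 kept the call without each of the 4 arrays compared, 94 with the replicate block, 63 with no filter on dim probes, 58 in the fit of only the groups compared, 78 under all scaling and background settings and 52 in all settings, and 0 named results reversed. Counts depended on the setting, and the cause was not tested. For PD0325901 against 4OHT 10 h (1388 called, 736 higher, 652 lower) the counts were 333, 164 and 169 with no filter, 2820, 1512 and 1308 with the replicate block, and 327, 175 and 152 in the fit of only the groups compared. They were 369 to 573, 190 to 277 and 179 to 296 without 1 array. The higher count was 490 with median centring, and the lower count 1034 with an intensity trend and robust prior. For 4OHT 8 h against untreated (4931, 2329 and 2602) they were 2303, 1146 and 1157 with no filter, 2766, 1281 and 1485 in the fit of only the groups compared, and 2268 to 2852, 1091 to 1482 and 1177 to 1511 without 1 array. The lower count was 1511 with median centring and 3994 with the replicate block. Features higher at 8 h and lower after PD0325901 (532) numbered 148 with no filter, 1018 with the block, 133 in the fit of only the groups compared, 823 with an intensity trend and 159 to 206 without 1 array. Those lower at 8 h and higher after it (537) numbered 338, 131, 1118 and 116 with median centring, no filter, the block and only the groups compared, and 142 to 202 without 1 array. The block changed no other call than those given with it in the text among the genes named by rule. Signals counted as well above background from 6.68 to 9.58 upward in replicate 1 and from 14.82 to 19.96 upward in replicate 2. Genes below background on both arrays of a group have bounds in place of folds, and those below it on 1 of 2 are named as such.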

Other observations

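Some gene families outside the lists, picked after their values were seen and given without a test of the family, also held calls. The Pramel family is expressed in early embryos and naive stem cells. Of its 13 tested genes 5 rose and 0 fell after PD0325901, against 3.24% higher and 2.87% lower among all features. Pramel30 was not well above background at 10 h of 4OHT and at least 6.97-fold higher after the inhibitor, at -2.03 and -2.27 against -2.94 and -3.36 in untreated cells. Gm13043 was at least 12.4-fold higher, a call lost in the fit of the 4 arrays alone. Pramel13 rose from 3.19 and 3.05 to 4.21 and 3.91 (0.94 ± 0.12), a call lost without 4OHT 10 h replicate 2, with no filter and in the fit of the 4 arrays alone. Members of this family are near-identical copies, so a probe may read more than 1 of them. Cbx8 and Cbx2 encode chromodomain subunits of Polycomb repressive complexes. Of 5 genes of Polycomb CBX proteins tested 3 rose and 0 fell, against the same shares. Cbx8 rose from -4.20 and -4.80, where 1 array was well above background, to -1.89 and -1.95 (2.58 ± 0.21, at least 4.99-fold with the dim array set at its lowest signal well above background) and Cbx2 by 0.86, the latter a call lost without either PD0325901 array, without 4OHT 10 h replicate 2 and with no filter.

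Ptch1, a receptor of Hedgehog signalling that is also a target of the pathway, rose from -2.67 and -2.62 to -0.87 and -1.07 (1.68 ± 0.14, adjusted p = 0.00362). Gli1, another target, lay at 4.32 and 4.11 and 4.77 and 4.59 and did not pass (0.47 ± 0.12, adjusted p = 0.0952). Of 13 Hedgehog pathway genes tested 3 rose and 2 fell, against 3.24% higher and 2.87% lower among all features. Ackr3, a scavenging receptor of the chemokine CXCL12, rose from -1.67 and -1.75 to 0.46 and 0.12 (2.0 ± 0.18), and Cxcl12 itself was at least 5.07-fold higher, a call lost without each of the 4 arrays. Of 7 CXC chemokines and receptors tested 3 rose and 0 fell, against the same shares. Among genes with no call after 8 h of 4OHT, Col26a1, a collagen gene, rose from -1.29 and -1.62 to 1.98 and 1.60 (3.24 ± 0.18, adjusted p = 0.00145), above all 6 other arrays, and its call held in every setting tried.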
